A study of Cricetiscus sungorus with 12 samples.

Results

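The AP-1 family comprises the transcripts of 7 genes, the Fos genes Fos, Fosb, Fosl1 and Fosl2 and the Jun genes Jun, Junb and Jund. They were taken from the 17191 mouse GeneIDs to which the hypothalamic transcripts of the Djungarian hamster had been assigned, by the GeneIDs 14281 (Fos), 14282 (Fosb), 14283 (Fosl1), 14284 (Fosl2), 16476 (Jun), 16477 (Junb) and 16478 (Jund). All 7 were present in every sample. RNA-Seq had been performed on the whole hypothalamus of 12 adult hamsters, each of which is 1 sample. Groups of 4 were LP-NT, normothermic hamsters held in 16 h of light and 8 h of dark, SP-NT, normothermic hamsters held in 8 h of light and 16 h of dark, and SP-HT, hamsters of the same short photoperiod that were hypothermic in spontaneous torpor. All were sampled at zeitgeber time (ZT) 4. By label, SP-HT held 3 males and 1 female, and each normothermic group held 2 of each sex. According to the study's methods the LP-NT hamsters carried no temperature transmitter, whereas all SP hamsters had been implanted and had shown torpor before, so photoperiod and surgery cannot be told apart in comparisons with LP-NT. The hamsters of all groups had been killed with carbon dioxide and perfused.

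AP-1 is a transcription factor that binds DNA as a dimer of basic leucine zipper proteins. Jun proteins pair with each other or with Fos proteins, whereas Fos proteins need a Jun partner, so that the proteins present together set which dimers can form. In neurons, Fos, Fosb and Junb are known as immediate early genes whose mRNA rises briefly after stimulation, and Fos is widely used in the hypothalamus as a marker of recently activated cells. Jun is also a target of the c-Jun N-terminal kinases (JNK), which phosphorylate its protein, and Jund is known for a steadier presence in many cell types. mRNA levels, as measured here, do not show protein, phosphorylation or dimers.

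Between 20204979 and 24186918 expected counts per hamster were assigned to GeneIDs. Normalized counts are given as CPM, counts scaled to a common library size by TMM over all 12 hamsters. In SP-NT replicate 19, labelled male, a pair of GeneIDs had 0 counts that had between 979 and 1699 and between 342 and 462 counts in the other 6 males and between 0 and 5 in the females, so the values of Jun, the ratios, the correlations and the log2(FC) of the other members are also given without this hamster. In LP-NT replicate 01, 3633 of the 14790 GeneIDs with a mean of at least 10 counts (24.6%) had their highest value of the 12 hamsters. The direction of torpor is in doubt. Taken as SP-HT over SP-NT by the deposited labels, the torpor differences of all genes that could be matched by value to the study's table of indicator genes had the opposite sign to the one printed there. The pair of GeneIDs with 0 counts in SP-NT replicate 19 followed the labelled sex in every other SP hamster. Sex labels would not show an exchange of group names alone. The photoperiod differences of the matched genes were matched with their sign, by the deposited labels of SP-NT and LP-NT. The study's table thus took the same hamsters as SP-NT as the labels do. Labels exchanged only at deposit would not have given these photoperiod values. An exchange before both the table and the labels would leave them as they are, and whether the table is turned or such an exchange took place was not settled here. Each direction between these groups is therefore given for the hamsters as labelled. If the labels are exchanged, the differences between SP-HT and SP-NT turn, and those given for SP-HT and for SP-NT against LP-NT change places.

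Levels between members were compared per transcript length, as TPM, the share of transcripts after division by effective length, on a fixed total. Jund had by far the most mRNA, with 280 ± 14.1 TPM (SD, n = 12), and ranked 493 among the 17191 GeneIDs. Jun followed with 50.2 ± 6.72 TPM and Junb with 23.5 ± 5.17 TPM (SD, n = 12 each). Among the Fos genes the mean level was 10.1 ± 8.19 TPM for Fos, 6.38 ± 1.44 TPM for Fosl2, 2.26 ± 0.497 TPM for Fosb and 0.768 ± 0.342 TPM for Fosl1 (SD, n = 12 each). The ranges over the 12 hamsters did not overlap between Jund and Jun, Jun and Junb, Fosl2 and Fosb, or Fosb and Fosl1. They overlapped between Junb and Fos and between Fos and Fosl2. Within each hamster Junb exceeded Fos in 12 of 12, and Fos exceeded Fosl2 in 11 of 12, the exception being the hamster with the lowest Fos level, LP-NT replicate 05.

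The transcript pool of the family was thus made up mainly of Jun genes. Jund supplied between 68.7% and 77.4% of the summed TPM of the 7 members in a hamster. The 4 Fos genes together supplied between 3.74% and 11.6%, and the highest value was that of LP-NT replicate 01. Without this hamster the Fos genes supplied 4.94 ± 1.23% in LP-NT (SD, n = 3), against 4.55 ± 0.353% for SP-NT and 4.21 ± 0.101% for SP-HT (SD, n = 4 each). Jun supplied between 15.5% and 16.0% of the pool in the hamsters labelled SP-HT, more than in any hamster labelled SP-NT, with 10.8% to 13.0%, or of LP-NT, with 10.9% to 14.1%. These shares are relative, so that a higher share of 1 member lowers the shares of the others.

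**Figure D1:**
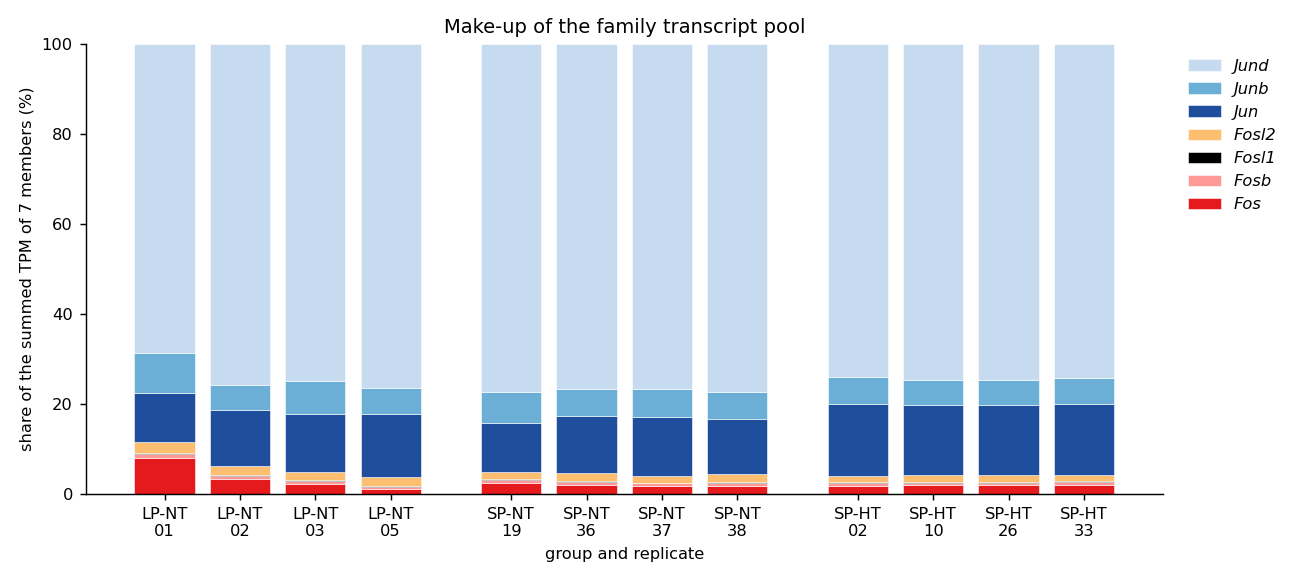
Share of each AP-1 member in the summed TPM of the 7 members (%), for each of the 12 hamsters by group and replicate. The palest segment is Jund, which makes up between 68.7% and 77.4% of each bar, and the dark blue segment is Jun, which takes between 15.5% and 16.0% in the hamsters labelled SP-HT.

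Jun, which like Junb and Jund can form AP-1 dimers without a Fos protein, was the only member called. The study lists Jun as downregulated in torpor, which is among the opposite signs described above. Here Jun was higher in the hamsters labelled SP-HT, a direction that these signs leave in doubt. In those labelled SP-HT its normalized counts were 67.5 CPM in replicate 02, 70.9 CPM in replicate 10, 65.2 CPM in replicate 26 and 71.6 CPM in replicate 33. In SP-NT they were 47.8 CPM in replicate 19, 55.3 CPM in replicate 36, 52.6 CPM in replicate 37 and 47.2 CPM in replicate 38. LP-NT had 57.6, 55.0, 53.2 and 56.0 CPM in replicates 01, 02, 03 and 05. The lowest hamster labelled SP-HT thus lay above the highest hamster of both normothermic groups, while the normothermic groups overlapped.

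For torpor, Jun was higher in the hamsters labelled SP-HT, with 68.8 ± 3.0 CPM, than in those labelled SP-NT, with 50.7 ± 3.92 CPM (SD, n = 4 each). As labelled this was a log2(FC) of 0.44, or of -0.44 with the groups turned, with a standard error of 0.0649 and a 95% interval from 0.29 to 0.58, or 1.35-fold as labelled, with an adjusted p = 0.00948 in edgeR (quasi-likelihood test, Benjamini-Hochberg adjustment over all genes). Over all 16195 genes tested, 389 were called in this comparison (2.40%), 82 of them higher in the samples labelled SP-HT (0.506%), and by p Jun ranked 56. Of the 7 members 1 was called, and 1, also Jun, had groups without overlap, beside 12.1% of all genes. Without SP-NT replicate 19, the log2(FC) of Jun was 0.41 (adjusted p = 0.0341 in edgeR). In SP-NT the hamsters labelled female had the higher Jun values, and with sex as a covariate, as labelled, the log2(FC) was 0.46 (adjusted p = 0.0146 in edgeR). Leaving out any single hamster kept the call of Jun, with an adjusted p between 0.0165 and 0.0342, and in all 10 other settings.

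For SP-HT against LP-NT, which differ in both photoperiod and body temperature, Jun was higher in the hamsters labelled SP-HT, with 68.8 ± 3.0 CPM, than in LP-NT, with 55.5 ± 1.83 CPM (SD, n = 4 each). The log2(FC) was 0.32 (standard error 0.0610, 95% interval 0.18 to 0.45), or 1.25-fold, with an adjusted p = 0.0359 in edgeR. Of all 16157 genes tested 221 were called (1.37%). This call was close to the threshold, and it was lost in 7 of the 8 fits without 1 hamster, in which the adjusted p lay between 0.0723 and 0.107, while the log2(FC) lay between 0.30 and 0.34. It held without LP-NT replicate 01 (adjusted p = 0.0355 in edgeR). For photoperiod, SP-NT against LP-NT, Jun had a log2(FC) of -0.13 (95% interval -0.28 to 0.02, adjusted p = 0.913 in edgeR). The comparisons share the SP-HT or the SP-NT hamsters and are not independent of each other. As these are samples of whole tissue, more cells with Jun mRNA and more Jun mRNA per cell cannot be told apart.

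**Figure D2:**
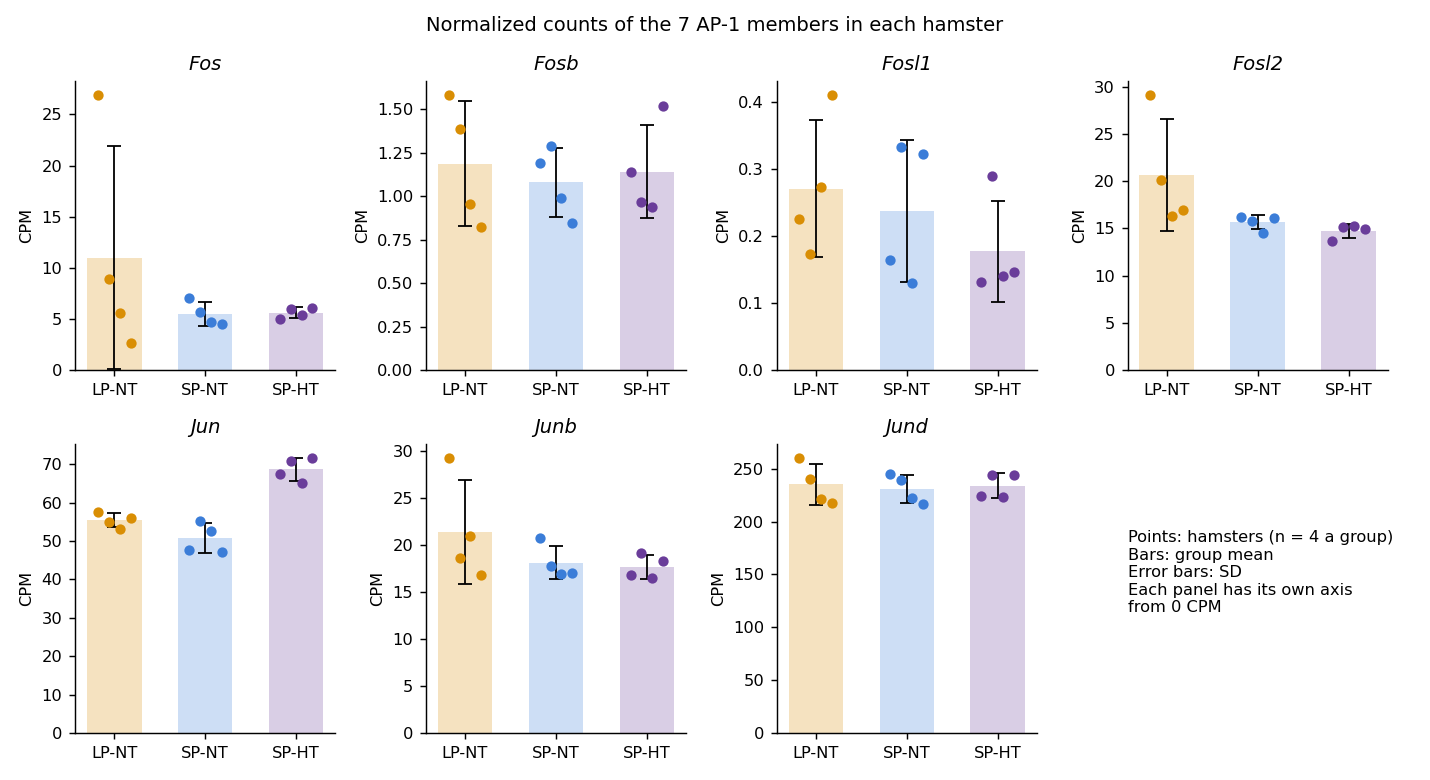
Normalized counts (CPM, y axis from 0, with its own scale in each panel) of the 7 members in LP-NT, SP-NT and SP-HT. Points are hamsters, bars are group means and error bars are the SD of 4 hamsters. The 4 hamsters labelled SP-HT lie above all others for Jun, and LP-NT replicate 01, the leftmost LP-NT point, lies at 26.9 CPM for Fos.

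Jund, the most abundant member, was among the steadiest. LP-NT had a mean of 235 ± 19.6 CPM, SP-NT of 231 ± 13.5 CPM and SP-HT of 234 ± 11.8 CPM (SD, n = 4 each), and all 3 groups overlapped. The log2(FC) for torpor was 0.02 with a 95% interval from -0.10 to 0.14, which leaves room for changes of up to 1.10-fold (adjusted p = 0.882 in edgeR). For photoperiod the interval ran from -0.18 to 0.13.

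Junb, an immediate early gene and a Jun protein of weaker transactivation, had 20.7, 17.7, 17.0 and 17.1 CPM in SP-NT replicates 19, 36, 37 and 38. In SP-HT replicates 02, 10, 26 and 33 it had 16.8, 19.2, 16.5 and 18.3 CPM. In LP-NT replicates 01, 02, 03 and 05 it had 29.3, 18.6, 20.99 and 16.8 CPM, so that the groups overlapped and 1 LP-NT hamster stood above the rest. Its log2(FC) was -0.04 for torpor (95% interval -0.23 to 0.16, adjusted p = 0.873 in edgeR) and -0.24 for photoperiod (95% interval -0.60 to 0.11, adjusted p = 0.913 in edgeR). Without LP-NT replicate 01 the photoperiod value was -0.05.

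**Figure D3:**
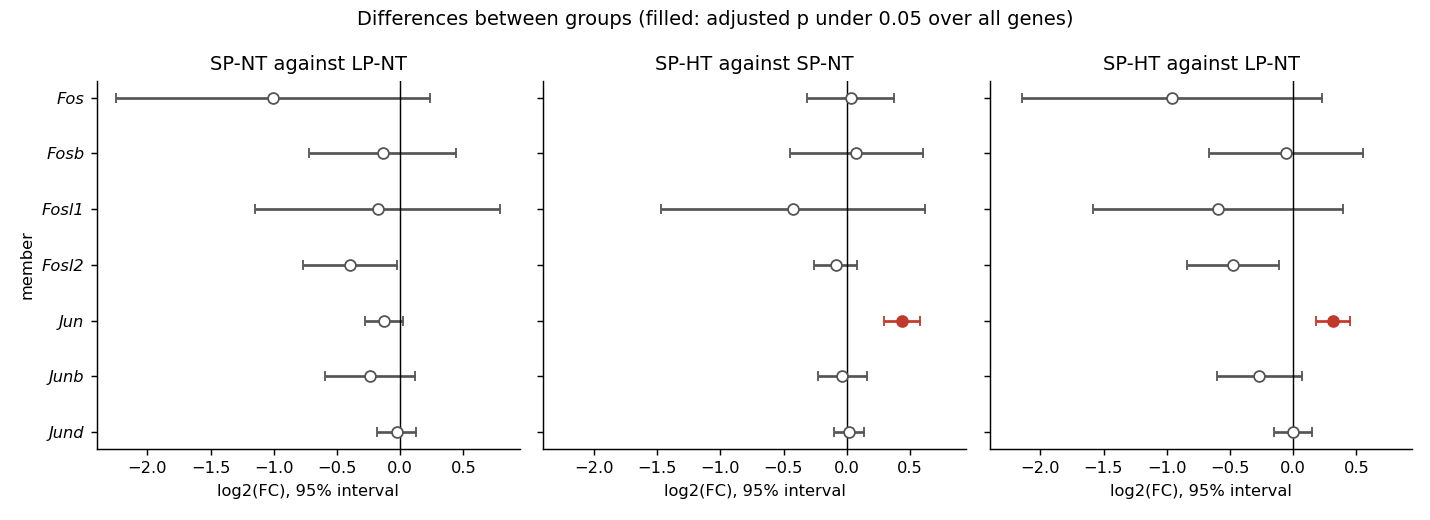
log2(FC) of each member (x axis) with its 95% interval in the 3 comparisons, from edgeR. Filled red points passed an adjusted p of 0.05 over all genes. These are Jun in both comparisons with the hamsters labelled SP-HT, at 0.44 and 0.32 in the direction of the labels, and the widest intervals are those of Fos against LP-NT and of Fosl1.

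Fos, the immediate early gene used as an activity marker, differed more between hamsters of LP-NT than between groups. LP-NT replicate 01 had 26.9 CPM (595 counts), replicate 02 had 8.90 CPM, replicate 03 had 5.55 CPM and replicate 05 had 2.69 CPM (59 counts). In SP-NT the values were 7.02, 5.66, 4.75 and 4.52 CPM in replicates 19, 36, 37 and 38. In SP-HT they were 4.99, 6.03, 5.36 and 6.08 CPM in replicates 02, 10, 26 and 33. The LP-NT hamsters thus spanned 9.99-fold and enclosed every hamster of the SP groups, which spanned 1.55-fold in SP-NT and 1.22-fold in SP-HT.

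For torpor the Fos means were 5.61 ± 0.530 CPM in SP-HT and 5.49 ± 1.14 CPM in SP-NT (SD, n = 4 each). The 95% interval of the log2(FC) ran from -0.31 to 0.37, so that a change of up to 1.29-fold upward was within the error. For photoperiod the log2(FC) was -1.01 with a 95% interval from -2.25 to 0.23 (adjusted p = 0.913 in edgeR). This value came from LP-NT replicate 01, without which it was -0.06. Likewise, the log2(FC) of -0.96 for SP-HT against LP-NT (adjusted p = 0.439 in edgeR) was -0.03 without this hamster.

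Fosb, whose protein and its truncated form are known for lasting after repeated stimulation, was low, with 18 to 35 counts per hamster. LP-NT ranged from 0.822 to 1.58 CPM, SP-NT from 0.847 to 1.29 CPM and SP-HT from 0.940 to 1.52 CPM, and the groups overlapped. For torpor the log2(FC) was 0.08 with a 95% interval from -0.45 to 0.60, which shows how little this depth resolves.

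Fosl2, which encodes Fra-2, a Fos protein without the transactivation domain of Fos, had its lowest mean in SP-HT, with 13.7, 15.2, 15.3 and 15.0 CPM in replicates 02, 10, 26 and 33. In SP-NT it had 16.2, 15.8, 14.5 and 16.1 CPM in replicates 19, 36, 37 and 38. In LP-NT it had 29.1, 20.1, 16.3 and 16.9 CPM in replicates 01, 02, 03 and 05. No SP hamster reached the lowest LP-NT hamster, but the margin was small, 16.2 against 16.3 CPM.

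For photoperiod the log2(FC) of Fosl2 was -0.40 with a 95% interval from -0.77 to -0.03. It did not pass the threshold (unadjusted p = 0.0369 and adjusted p = 0.913 in edgeR). No member was called for photoperiod by edgeR, DESeq2 or limma, while 6 of 16199 genes were called by edgeR (0.0370%). Fosl2 was the only member with an unadjusted p under 0.05, beside 4.84% of all genes, and the only one whose groups did not overlap, beside 3.44% of all genes. In SP-HT against LP-NT its log2(FC) was -0.48 (95% interval -0.84 to -0.11, adjusted p = 0.200 in edgeR), and its groups and those of Jun did not overlap, beside 10.6% of all genes. Without LP-NT replicate 01 the values of Fosl2 were -0.19 for photoperiod and -0.27 for SP-HT against LP-NT.

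Fosl1, which encodes Fra-1, was near zero, with 3 to 9 counts per hamster. LP-NT had 24 counts over its 4 hamsters, SP-NT had 23 and SP-HT had 15. Differences in Fosl1 were not detectable at this depth, as the 95% interval of its torpor log2(FC) ran from -1.47 to 0.62, and it was left out of the ratios and correlations that follow.

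Across the 7 members the median log2(FC) was 0.02 for torpor, -0.18 for photoperiod and -0.27 for SP-HT against LP-NT, beside -0.00273, -0.00243 and -0.000860 over all genes tested. LP-NT replicate 01 had the highest value of the 12 hamsters in 5 of the 7 members, Fos, Fosb, Fosl2, Junb and Jund, beside the 24.6% of all GeneIDs given above. The part of this hamster in the medians against LP-NT was not tested apart from the values without it. Without SP-NT replicate 19, the torpor log2(FC) in edgeR was 0.17 for Fos, 0.13 for Fosb, -0.56 for Fosl1, -0.07 for Fosl2, 0.04 for Junb and 0.05 for Jund. For photoperiod it was -1.14, -0.19, -0.04, -0.41, -0.31 and -0.06 for these members without that hamster, and none was called in either comparison.

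Because AP-1 dimers form from the proteins present together, Jun was also expressed relative to each other member within the same hamster, as the log2 ratio of counts with 0.5 added to each. Such a ratio does not depend on the library scaling, but all 5 ratios share Jun and are therefore not independent. Jun alone separated the hamsters labelled SP-HT from both other groups, so its ratio to a steady gene would tend to separate them too. The ratios are thus no support beyond the Jun values. The share of all GeneIDs to which the ratio of Jun would separate the groups was not computed. For torpor the ratio of Jun to Jund was higher by 0.42 in the hamsters labelled SP-HT, at -1.77 ± 0.0231, than in those labelled SP-NT, at -2.19 ± 0.125 (SD, n = 4 each), and, like the other torpor differences here, this would turn if the labels are exchanged. In counts, there were between 0.195 and 0.237 Jun counts per Jund count in SP-NT, and between 0.290 and 0.301 in SP-HT. The ratio of Jun to Junb was higher by 0.47 as labelled, 1.96 ± 0.0526 against 1.49 ± 0.205, and that of Jun to Fosl2 by 0.53, 2.22 ± 0.0907 against 1.69 ± 0.162 (SD, n = 4 each). For Jun to Fos the difference was 0.39. In these 4 ratios every hamster labelled SP-HT lay above every one labelled SP-NT, with an exact two-sided permutation p = 0.0286, which is the smallest that 4 against 4 hamsters can give, and an adjusted p = 0.0357 over the 5 ratios. The ratio of Jun to Fosb overlapped between the groups, with a difference of 0.37 (exact permutation p = 0.114). Without SP-NT replicate 19, 4 ratios still differed.

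**Figure D4:**
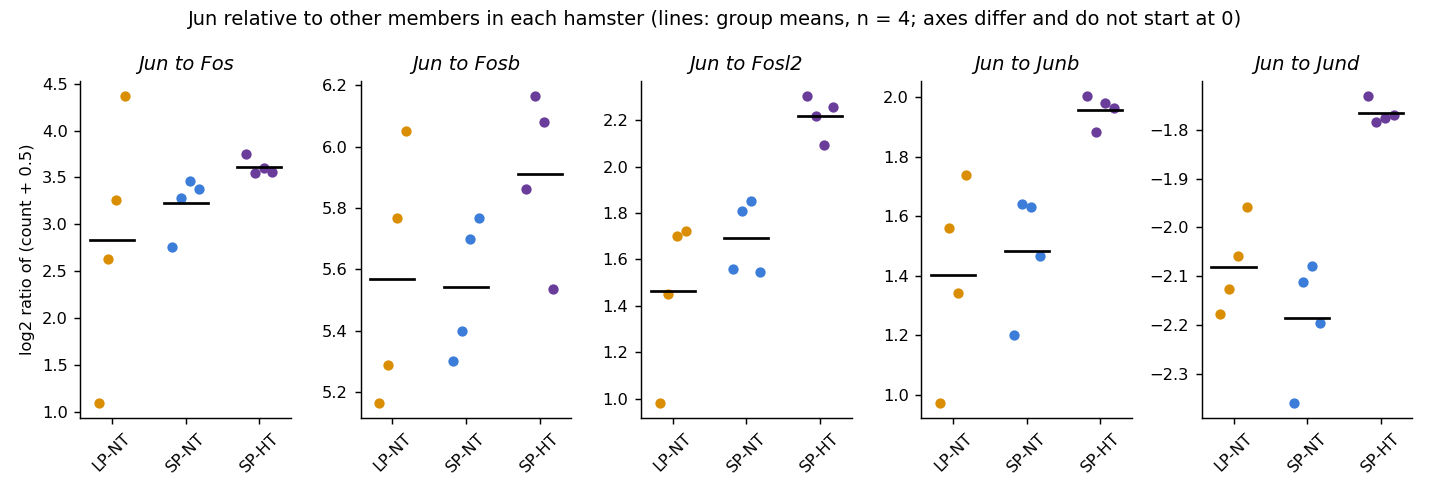
log2 ratio of Jun to 5 other members (counts with 0.5 added, y axis, scales differ between panels and do not start at 0) in each hamster by group, with lines at the group means. For Fosl2, Junb and Jund the 4 hamsters labelled SP-HT lie above all 8 normothermic hamsters.

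Against LP-NT, the ratio of Jun in the hamsters labelled SP-HT was higher by 0.75 to Fosl2, by 0.55 to Junb and by 0.31 to Jund, each without overlap (exact permutation p = 0.0286, adjusted p = 0.0476 over 5 ratios). With any 1 hamster labelled SP-HT left out the groups still did not overlap, and the differences lay between 0.30 and 0.80. However, 0 ratios then passed after adjustment, with an exact permutation p of 0.0286 for Fosl2 and Jund and 0.0571 for Junb over 35 splits. With any 1 LP-NT hamster left out, 3 or 4 ratios still passed. Passing after adjustment thus needed all 4 hamsters labelled SP-HT, whereas the separation of the groups did not. Over 35 splits the p-values are coarse. For photoperiod 0 of 5 ratios differed, and the smallest exact permutation p was 0.229, for Jun to Jund, of which the difference was -0.11.

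The members also varied between hamsters of the same group. For the 6 members with a mean of at least 10 counts, log2 CPM was centred on the group means and the 15 pairs were correlated over the 12 hamsters, with an exact permutation test that exchanged hamsters within groups only, over 13824 arrangements. Fos and Jund varied together, with r = 0.83 (exact permutation p = 0.000217, adjusted p = 0.00326 over 15 pairs). Not centred, Pearson's r was 0.81 (permutation p = 8.0e-05, adjusted p = 0.0012) and Spearman's rho 0.90 (permutation p = 0.00012, adjusted p = 0.0018), and r was 0.74 without LP-NT replicates 01 and 05, the hamsters farthest from the median of Fos. The scale of this variation was unlike for both genes, as Fos deviated by up to 9.99-fold within a group and Jund by up to 1.197-fold. This pair passed with each hamster left out in turn, and without LP-NT replicate 01 r was 0.72 (adjusted p = 0.0477 by the exact permutation test).

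In all, 6 of the 15 pairs passed at an adjusted p under 0.05. The others were Fos with Fosb (r = 0.75) and Junb (r = 0.88), and Jund with Fosb (r = 0.83), Fosl2 (r = 0.75) and Junb (r = 0.80), with adjusted p between 0.0334 and 0.0488 by the exact permutation test. None of these 5 passed without LP-NT replicate 01 or 05, without SP-NT replicate 19 or 37, or without SP-HT replicate 33. Without LP-NT replicate 01 their r were 0.70, 0.61, 0.76, 0.56 and 0.64 in the order given. Jun was in none of the 6 pairs, and its r with the other 5 members lay between 0.16 and 0.47. Whether its r differed from those of the other pairs was not tested.

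**Figure D5:**
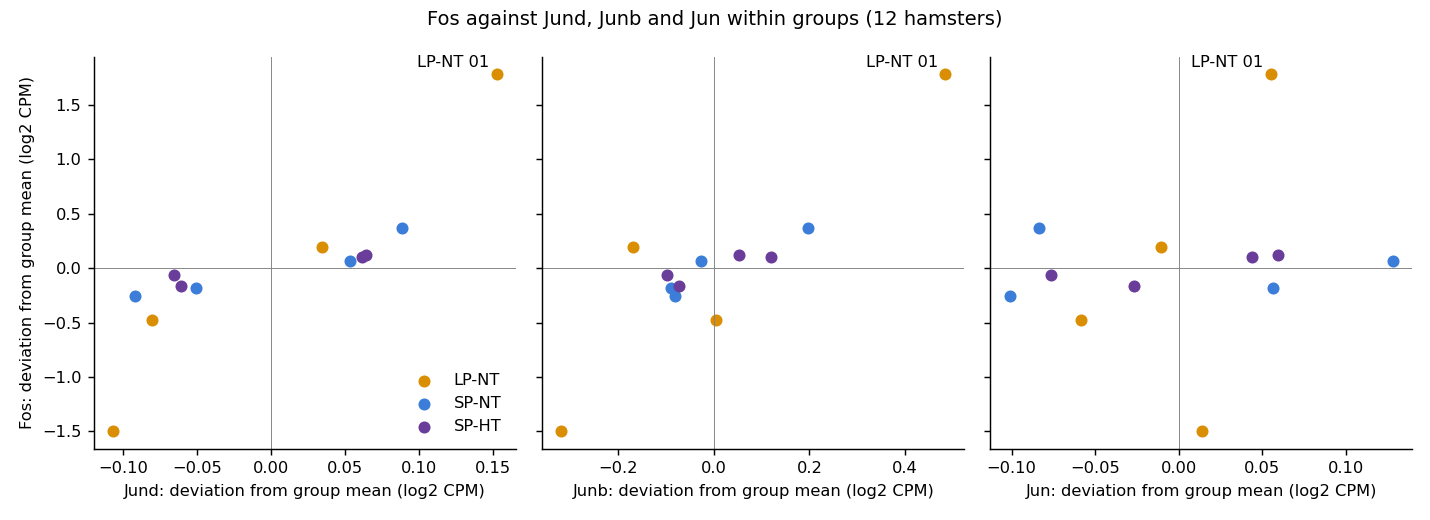
Deviation of Fos from its group mean (y axis, log2 CPM) against that of Jund, Junb and Jun (x axes, log2 CPM) in the 12 hamsters, coloured by group. The points rise together for Jund (r = 0.83), the points for Junb (r = 0.88) spread farthest at LP-NT replicate 01, and for Jun r is 0.20.

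Likeness over the 12 hamsters, without centring and among the 14790 GeneIDs with a mean of at least 10 counts, gives these correlations a scale. Junb was the member most like Fos (r = 0.88), yet it ranked 91, and the 3 most alike GeneIDs had r between 0.945 and 0.954. Jund, with r = 0.81, ranked behind both Junb and Fosl2 for Fos, and Fos ranked 52 for Jund. Many GeneIDs outside the family were thus more like Fos than Jund was. Whether the correlation of Fos and Jund exceeds that of GeneIDs in general was not tested. Jund was the member most like Fosb (r = 0.83) and ranked 16 for it. For Jun, the GeneIDs 75826 (r = 0.919), 27414 (r = 0.914) and 226539 (r = 0.913) were most alike, and no other member ranked above 4226, the rank of Jund. These 3 GeneIDs carry no names in the files. For Junb, Fosl2 and Jund the highest r with any GeneID was 0.967, 0.944 and 0.915. All values share the same 12 libraries, and the r are given as a description.

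Of the JNK pathway upstream of Jun, the scaffold proteins that hold its kinases together, Mapk8ip1 and Mapk8ip3, could be matched to GeneIDs. Mapk8ip1 had 376 ± 16.3 CPM in SP-NT and 397 ± 20.1 CPM in SP-HT (SD, n = 4 each), a log2(FC) of 0.08 (95% interval -0.03 to 0.19, adjusted p = 0.447 in edgeR). Mapk8ip3 had 522 ± 10.9 CPM in SP-NT and 563 ± 22.6 CPM in SP-HT (SD, n = 4 each), a log2(FC) of 0.11 (95% interval 0.01 to 0.20, adjusted p = 0.221 in edgeR). Neither passed the threshold in edgeR or in DESeq2 with default settings in any of the 3 comparisons. In DESeq2 with effective lengths, the setting that served to name them, Mapk8ip1 passed for torpor as labelled (log2(FC) 0.16, adjusted p = 0.0410) and Mapk8ip3 did not (adjusted p = 0.0520). These adjusted p were matched to the study's own values in order to name the genes, so they are not separate results. Other kinases, phosphatases and dimer partners of AP-1 were not analysed here, as their names are not paired with GeneIDs.

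Of the marker transcripts, only some of the hypothalamus could be matched, through the study's table of indicator genes. No marker of thalamus, cortex, choroid plexus or meninges was matched, so their presence does not test the dissection. Pomc, the precursor of melanocortins, was lowest in the hamsters labelled SP-HT, with 12.2 ± 1.12 CPM, against 16.2 ± 3.63 CPM for SP-NT and 33.4 ± 12.9 CPM for LP-NT (SD, n = 4 each). Avp, Trh and Npy, which encode hypothalamic peptides, and Dio2, the thyroid hormone activating enzyme of tanycytes, were present in every hamster, with the lowest value at 4.58 CPM, for Dio2. Of these 5, Pomc was called in SP-HT against LP-NT, where edgeR gave a log2(FC) of -1.44 and an adjusted p = 0.0128, and edgeR called none of them in the other comparisons. DESeq2 with default settings also called Pomc (adjusted p = 0.0122) and Npy (adjusted p = 0.0360) for photoperiod and Npy for torpor (adjusted p = 0.0340). Beside Jun, Npy had 18.04 ± 3.59 CPM in the hamsters labelled SP-HT and 12.4 ± 2.70 CPM in those labelled SP-NT (SD, n = 4 each), a log2(FC) of 0.53 with an unadjusted p = 0.00943 and an adjusted p = 0.125 in edgeR. Avp had 150 ± 48.8 CPM and 228 ± 73.0 CPM in the same groups (SD, n = 4 each), a log2(FC) of -0.60 with an unadjusted p = 0.0451 and an adjusted p = 0.262 in edgeR. Their part in the Jun values, and that of cell composition, was not tested.

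The assembled transcripts behind each member bear on these values. Jund was represented by 1 transcript, Jun, Fosl1 and Fosl2 by 2, Fos and Junb by 3 and Fosb by 5. The effective length of Jun, which RSEM estimates per sample, stayed between 3166 and 3203 bases, whereas that of Fosb ranged from 1029 to 1652 bases and that of Fosl1 from 542 to 1294 bases, so that the TPM of Fosb and Fosl1 follow the estimated length as well as the counts. With effective lengths as an offset, Jun remained called for torpor (log2(FC) 0.43, adjusted p = 0.0248 in edgeR), but not for SP-HT against LP-NT (log2(FC) 0.31, adjusted p = 0.0796 in edgeR).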

How the data were processed

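The authors trimmed the reads (Trim Galore 0.6.6), pooled all read pairs into a de novo assembly, assigned transcripts to the mouse GeneID of the best protein hit and quantified each hamster with RSEM 1.3.1 on Bowtie 1.3.0, so a GeneID can join isoforms and paralogs. The authors deposited the RSEM estimated counts (each an expected count per GeneID, without normalization) and TPM. They also deposited effective lengths. Expected counts were rounded and GeneIDs with at least 10 counts over the 8 hamsters of a comparison tested with edgeR 4.0.16 (quasi-likelihood, TMM, Benjamini-Hochberg adjustment at 0.05, R 4.3.3), a step tested on simulated data. Alternatives used DESeq2 1.42.0, limma 3.58.1, other filters, scalings and covariates, and left out each hamster. log2 CPM used a prior count of 2.

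Members and gene lists were chosen with earlier results of these data known. The rule named all 7 members, called genes and the most abundant gene of each pathway list, and the 3 GeneIDs most like each member. The files pair no names with GeneIDs. Members follow their GeneIDs. Of 86 entries in the pathway lists 2 were named, and of 39 marker genes 5, each where a single GeneID, fitted by DESeq2 with effective lengths, had the log2(FC) and adjusted p that the study's table of indicator genes prints for that name, with the sign for torpor left out, because for 59 of 59 uniquely matched genes that sign was opposite to the one of SP-HT over SP-NT by the deposited labels. The sign for photoperiod was kept in this match, with SP-NT as labelled, so labels exchanged only at deposit would not have matched. Whether the table is turned, or the labels were exchanged before both, was not settled. All other list genes, Rbm3 and Cirbp included, were left out, and for most members only the r of the most similar GeneIDs is given. GeneIDs used to check the labelled sex came from earlier results. The hamster is the unit in every test. Group differences in edgeR are weighed against the spread between hamsters, while the permutation tests use rearrangements of hamsters.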

Additional observations from a re-analysis of the deposited data

Results flagged for a closer look

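Within the 21 groups of 4 hamsters (7 members in 3 groups), 1 value stood apart from the other hamsters of its group by Dixon's criterion, and chance alone flags about 1 in 20 groups. Fosl1 in SP-HT replicate 10 had 0.289 CPM, while the other 3 SP-HT hamsters had between 0.131 and 0.147 CPM. This is 6 counts beside 3 counts in each of the others. Fos in LP-NT replicate 01 did not meet the criterion, since its distance from the next hamster was 0.744 of the range of the group.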

How the results depend on the processing

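No paired analysis was possible because each group holds different hamsters. With 4 hamsters per group and outbred animals, small changes of low members such as Fosb and Fosl1 were not resolved, and the exact tests of ratios cannot go below 0.0286. Jun was called for torpor in all 10 other settings, with a log2(FC) between 0.43 and 0.46, and with each hamster left out (0.41 to 0.48). In SP-HT against LP-NT the count of members called fell to 0 with effective lengths as an offset, where Jun had a log2(FC) of 0.31, and lay between 0 and 1 with each hamster left out (log2(FC) 0.30 to 0.34). No other member was called in any setting. The cause was not tested.

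The number of genes called for photoperiod was 33 in DESeq2 with and 33 without independent filtering and 32 with effective lengths in DESeq2, and 5 to 8 with each hamster left out. For torpor it was 1017, 979 and 759 in these settings, 147 with the length offset, 242 with sex as a covariate, and 104 to 318 with each hamster left out. For SP-HT against LP-NT it was 706, 672 and 623 in DESeq2, 612 in the fit of all 12 hamsters, 103 with the length offset, 416 in limma, and 55 to 200 with each hamster left out. The share of torpor genes that were higher in the samples labelled SP-HT was 21.1% in edgeR and 40.6% in DESeq2, or 78.9% and 59.4% with the groups turned.

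Values near 0 changed sign. For torpor this was Fos with sex as a covariate (-0.013) and Fosb with effective lengths in DESeq2 (-0.038) or as an offset (-0.045). For photoperiod it was Jund in limma (0.0076), and for SP-HT against LP-NT Jund in DESeq2 with effective lengths (-0.0046), with the length offset (-0.0099) and with sex (-0.017). With each hamster left out, the torpor log2(FC) ranged from -0.051 to 0.17 for Fos, -0.088 to 0.17 for Fosb, -0.074 to 0.038 for Junb and -0.0080 to 0.052 for Jund, the photoperiod log2(FC) from -0.28 to 0.028 for Fosb, -0.38 to 0.088 for Fosl1 and -0.063 to 0.024 for Jund, and that of SP-HT against LP-NT from -0.22 to 0.11 for Fosb and -0.032 to 0.049 for Jund. In limma with quality weights the Fos log2(FC) was -0.21 for photoperiod and -0.19 for SP-HT against LP-NT.

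The Jun ratios that differed numbered 3 to 4 for torpor and 0 to 4 for SP-HT against LP-NT with each hamster left out, where 35 splits allow only coarse p-values. Of the correlated pairs, 2 remained by Spearman's rho and 1 on log2(TPM + 0.1), and 1 to 7 were found with each hamster left out.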
